A study of Mus musculus with 27 samples.

Results

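The comparison is that of OIR with nOIR retinas, taken whole, at postnatal day 14 (p14). It held 12 of the 27 mice of the series, chosen by their labels. These were 6 OIR p14 mice (S1 to S6) and 6 nOIR p14 mice (S1, S2, S3, S5, S6 and S7). nOIR p14 S4 was left out, as the study did. All were wild-type pups of both sexes, of the strain C57BL/6J as named by the study (C57BL/6 in the sample labels). The OIR pups breathed 75% oxygen from day 7 to day 12 and room air from then on, whereas the nOIR pups stayed in room air throughout. Each group came from several litters, and a library held 1 or both retinas of 1 pup. The sample labels did not give the litter of each mouse, so the p-values take mice as independent.

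In this oxygen-induced retinopathy (OIR) model, hyperoxia prunes the growing capillaries of the central retina. After return to room air the avascular tissue lacks oxygen, hypoxia-inducible factors (HIF) build up, and glycolytic and angiogenic genes are switched on. Stage p14 belongs to this hypoxic phase, and the sprouting of vessels into the vitreous is at its height only at p17. Capillaries are lined by endothelial cells, which form the inner blood-retina barrier, and wrapped by pericytes. Müller glia span the retina, recycle glutamate and react to injury with gliosis.

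Values are normalized reads, the read counts of each mouse divided by its DESeq2 size factor, as deposited. Genes were tested if their mean over the 12 mice was at least 10 normalized reads, which left 18955 of 40129 genes. Fold changes are differences of group means of log2(normalized reads + 1), OIR minus nOIR. They are given with their standard error (SE). A gene was called at an adjusted p under 0.05 (limma, Benjamini-Hochberg over all genes tested), and a DEG also had a log2FC above 2 or below -2. Recovered library totals lay between 24641221 and 33593428 reads in OIR mice and between 27076242 and 32033058 in nOIR mice.

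On the first principal component, which held 24.2% of the variance, the OIR mice lay between 17.4 and 62.6 and the nOIR mice between -37.6 and -30.6. OIR p14 S1 stood apart, since the other OIR mice reached no more than 38.5 on this component and S1 was also lowest on the second, at -64.8. Without S1, 804 genes were called higher and 853 lower, of which 676 and 650 were shared with the calls from all 12 mice. The crystallin gene Cryaa ranged from 0 to 6771 normalized reads in nOIR mice (highest in S5) and from 2.15 to 2377 in OIR mice. Xist, expressed from the inactive X chromosome, was under 100 normalized reads in 1 OIR mouse and 2 nOIR mice. With log2 Cryaa as a covariate 720 genes were higher and 644 lower, and with log2 Xist 723 and 626. Of the lists for other tissues, the lens and red blood cell lists had no member called (without nOIR S5, 1 lens gene was) and the retinal pigment epithelium list had 1 of 14 (Rlbp1, which Müller glia express too). The 17 lens genes tested nevertheless had a median log2FC of 1.10, with 15 of them above 0. The summed level of the lens list had a median of 4004 normalized reads in OIR mice (386.5 to 12755) and of 998.1 in nOIR mice (208.7 to 30694). The oligodendrocyte and optic nerve list had 2 of 6 higher (Olig1 and Pdgfra), with a summed level of 1730 to 2950 normalized reads in OIR and 1599 to 2152 in nOIR mice. The choroid and sclera fibroblast list had 2 of 12 higher (Col1a1 and Pdgfra), at 3471 to 5684 and 3195 to 4157 in sum. Pdgfra was a member of both lists and of the astrocyte list. Of 7 ciliary body and iris genes, 1 was higher (Slc4a4), a count of 0 without OIR S2, S4 or S6 or nOIR S3, S5 or S6, and the list summed to 731.1 to 1509 and 753.4 to 923.1. The part of these tissues in the results was not tested.

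At p14, 777 genes were called higher in OIR mice (4.10% of those tested) and 696 lower (3.67%). When each mouse was rescaled to the same total, the counts were 952 and 552, so the share of higher calls went from 52.7% to 63.3%. Most changes were moderate. Among the lower genes, 563 fell by no more than 1 on the log2 scale, 111 by between 1 and 2 and only 22 by more than 2 (0.116% of all genes tested), with a median of -0.56. Rises were larger, with 412, 214 and 151 genes in the same ranges (the last 0.797%) and a median of 0.95. The median over all genes tested was 0.0029. Of the 696 lower genes 410 had groups without overlap, and of the 777 higher ones 445. Over all genes tested, every OIR mouse lay below every nOIR mouse in 2.59% and above in 2.56%.

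**Figure D1:**
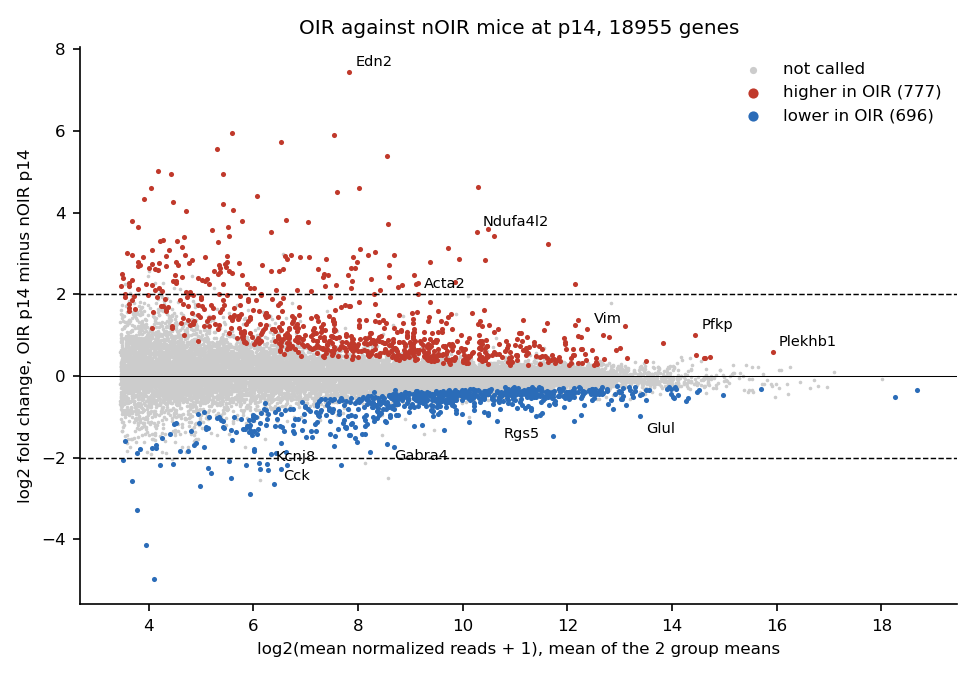
Each point is 1 of the 18955 genes tested, with its mean level on the x axis (log2 of normalized reads + 1) and its log2FC at p14 on the y axis. The 696 genes called lower (blue) lie mostly between 0 and -1, whereas the 777 called higher (red) extend to 7.44. Dashed lines mark 2 and -2.

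Pericyte genes were among those that fell. Of 25 pericyte genes tested, 9 were lower, 3 higher and 13 not called, with a median log2FC of -0.47. Rgs5, a regulator of G-protein signalling that marks pericytes, had 1580, 2330 and 2507 normalized reads in nOIR mice (lowest, median, highest) and 721.0, 997.0 and 1530 in OIR mice. All OIR mice therefore lay below all nOIR mice, and its log2FC was -1.10 (SE 0.18, adjusted p = 0.00115). Abcc9 and Kcnj8 encode the subunits of the ATP-sensitive potassium channel of pericytes. Abcc9 ranged from 206.7 to 352.5 in nOIR and from 64.4 to 132.2 in OIR mice, a log2FC of -1.47 (SE 0.20, adjusted p = 0.000213). Kcnj8 ranged from 239.7 to 349.0 and from 48.3 to 135.4, a log2FC of -1.72 (SE 0.23, adjusted p = 0.000185). Higd1b (-1.21), the endothelin receptor gene Ednra (-0.92) and the ATPase gene Atp13a5 (-2.88) also fell with no overlap between the groups. In whole-retina RNA, a loss of cells of a type cannot be told apart from less RNA per cell, here and in each cell type below.

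Not every pericyte gene followed. Pdgfrb, the receptor through which endothelial cells recruit pericytes, was not called (588.2 ± 189.3 against 714.2 ± 135.7 normalized reads, SD, n = 6 each, log2FC -0.32, adjusted p = 0.386). Ndufa4l2 rose, with 156.3 to 220.8 normalized reads in nOIR and 1686 to 3001 in OIR mice, and had the smallest adjusted p of all genes (log2FC 3.52, SE 0.14, adjusted p = 1.08e-09). It is also a HIF target. Steap4, a metalloreductase gene induced by inflammation, rose by 3.57 (SE 0.63), and Cd248 by 0.56 (SE 0.16, adjusted p = 0.0465). The call of Cd248 was lost without any one of OIR S3 to S6 or nOIR S2, S3, S5, S6 and S7, with an adjusted p of up to 0.11. The count of 9 lower pericyte genes was the same without each of the 12 mice in turn.

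Transporters and other genes of the mature blood-retina barrier fell as well. Of the 25 tested, 11 were lower and 1 higher, and the median log2FC was -0.46. Slco1a4 and Slco1c1 encode organic anion and thyroid hormone transporters of barrier endothelium. Slco1a4 had a median of 467.6 normalized reads in nOIR mice (351.0 to 557.9) and of 126.8 in OIR mice (72.2 to 251.0), a log2FC of -1.86 (SE 0.23, adjusted p = 0.000125). Slco1c1 fell by 1.62 (SE 0.23) and Pltp, a phospholipid transfer protein gene, by 1.31 (SE 0.16), each without overlap. Gkn3 had 32.5 ± 12.3 normalized reads in nOIR mice (SD, n = 6) and was at 0 in every OIR mouse. Taken against a floor of 3 reads per library, it was at least 10.9-fold lower. Cldn5, the main claudin of endothelial tight junctions, ranged from 1029 to 1324 in nOIR and from 487.4 to 919.8 in OIR mice (log2FC -0.83, SE 0.15, adjusted p = 0.00233). Mfsd2a, a lipid transporter that restrains transcytosis, had a log2FC of -0.39 and was not called (adjusted p = 0.181). The single rise was that of the glucose transporter gene Slc2a1 at 0.36 (adjusted p = 0.0266), which is also a HIF target and lies in photoreceptors and glia as well. Its call was lost without OIR S3 or S4 or nOIR S2, S5 or S6, with an adjusted p of up to 0.0648.

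General endothelial genes moved both ways. Of 25 tested, 4 were lower and 3 higher. The receptor gene S1pr1 fell by 0.57 (SE 0.11) along with Cldn5. Cdh5, the cadherin of endothelial junctions, was at 135.9 ± 87.5 in OIR and 142.3 ± 23.6 in nOIR mice (n = 6 each, SD), a log2FC of -0.25 that was not called (adjusted p = 0.702). OIR S4 had the highest Cdh5 of the 12 mice, at 296.3, and without this mouse the lower count of this list was 7 and the higher count 1. Ecscr, a gene of endothelial migration, rose by 0.87 (SE 0.20). Pecam1 rose by 0.40 (adjusted p = 0.0408), a call lost without OIR S1, S4, S5 or S6 or nOIR S1, S3, S5, S6 or S7 (adjusted p up to 0.0941). The higher count of this list also fell to 1 without OIR S5 or nOIR S1, S5, S6 or S7.

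Genes of tip cells, the endothelial cells that lead a sprout, went up at the same time. Of 18 tested, 12 were higher and none lower, with a median log2FC of 1.10. Esm1, a proteoglycan gene of tip cells, had 0 to 4.44 normalized reads in nOIR and 18.2 to 140.3 in OIR mice (log2FC 4.94, SE 0.56). The binding protein gene Igfbp3 rose by 2.79 (SE 0.26), the vasoactive peptide genes Adm and Apln by 3.03 (SE 0.28) and 1.57 (SE 0.20), and Angpt2, which loosens pericyte contact, by 0.88 (SE 0.14). Mcam, an adhesion molecule of endothelial and mural cells, rose by 1.30 (SE 0.14). In these 6 genes no OIR mouse overlapped the nOIR mice. Of 11 vascular smooth muscle genes tested, 3 were higher and none lower. Acta2, the actin of smooth muscle and contractile mural cells, ranged from 181.1 to 282.9 in nOIR and from 603.0 to 1177 in OIR mice. At 1.9997 (SE 0.16) its log2FC was the closest to the DEG threshold from below, and that of H2-Q6, at 2.0048, the closest above it. Some of the 12 tip cell genes are expressed by neurons, glia or mural cells too.

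**Figure D2:**
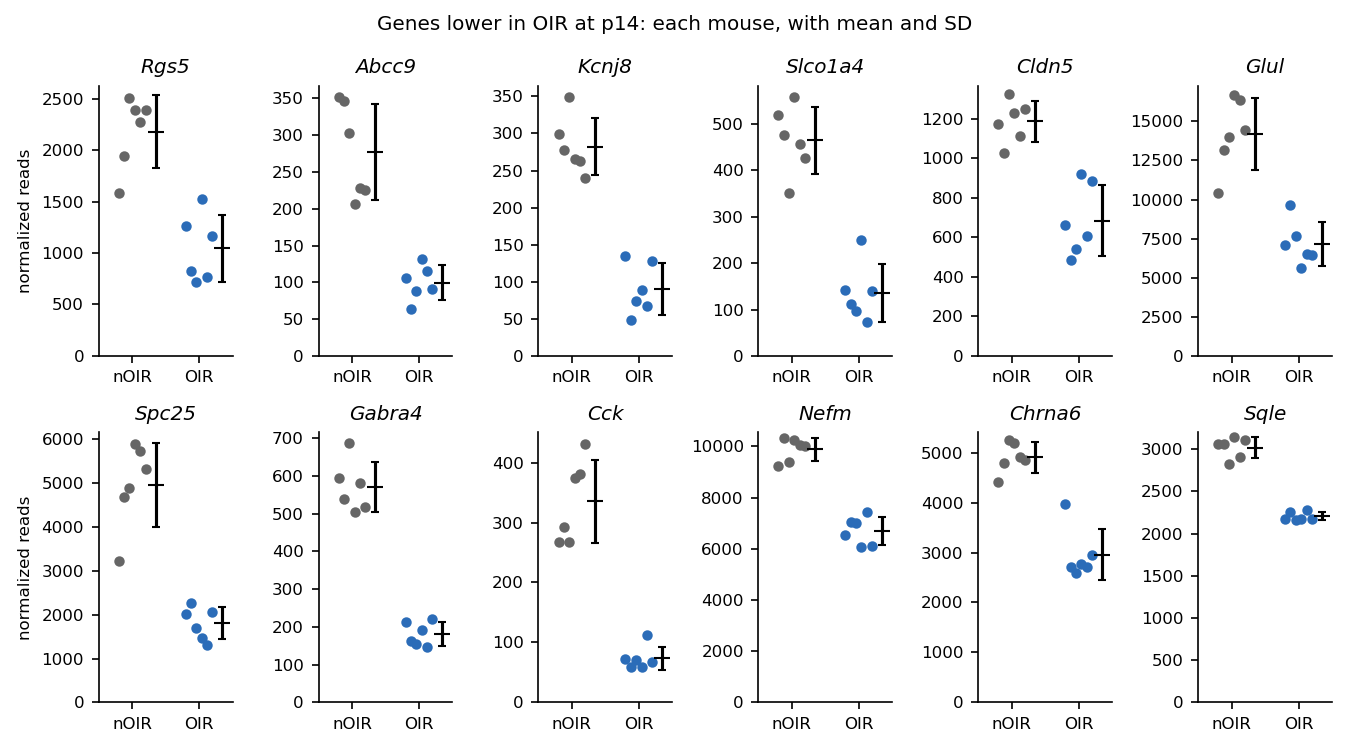
Normalized reads of 12 genes called lower at p14, with 1 point per mouse (grey, 6 nOIR; blue, 6 OIR) and, to the right, the mean and SD. Each y axis starts at 0. In each of the 12 genes the highest OIR mouse lies below the lowest nOIR mouse, for example 2279 against 2818 in Sqle. Gabra4, Cck and Spc25 were named by a rule that required this.

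Transmitter receptor genes were among those that fell. Of 28 glutamate, GABA and glycine receptor genes tested, 13 were lower and none higher, and 26 had a log2FC below 0 (median -0.42). The count was between 12 and 16 without each mouse in turn. Grm8, a presynaptic metabotropic glutamate receptor, had 1293, 1510 and 1711 normalized reads in nOIR mice (lowest, median, highest) and 785.0, 844.5 and 943.7 in OIR mice. Its log2FC was -0.83 (SE 0.09, adjusted p = 3.91e-05). The GABA-A receptor subunit genes Gabrb1 and Gabra2 fell by 1.09 (SE 0.15) and 0.85 (SE 0.13), and Gabrr2, a subunit of the slow GABA receptors of bipolar cells, by 0.56 (SE 0.09). Another subunit gene, Gabra4, which was not in the list, had the second smallest adjusted p among the lower genes. It ranged from 503.6 to 687.9 in nOIR and from 145.5 to 221.6 in OIR mice, a log2FC of -1.65 (SE 0.13, adjusted p = 2.88e-06).

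Among the other genes with the smallest adjusted p, Ramp1, a subunit of the receptors for the peptide CGRP, had 143.0 to 184.2 normalized reads in nOIR and 26.2 to 40.8 in OIR mice. It fell by 2.18 (SE 0.17, adjusted p = 2.34e-06), which was the smallest adjusted p among lower genes. The neuropeptide gene Cck fell by 2.19 (SE 0.19) from a median of 333.7 to one of 69.1, with the highest OIR mouse (S5) at 112.0. Tubb4a, a neuronal tubulin, fell by 0.71 (SE 0.07) and Faim2, an inhibitor of Fas-induced cell death in neurons, by 0.95 (SE 0.10). Kcnip2, which modulates voltage-gated potassium channels, fell by 0.92 (SE 0.10). Dio2, the enzyme that activates thyroid hormone, fell by 1.22 (SE 0.14) from 743.5 ± 38.5 to 326.1 ± 86.0 (n = 6 each, SD). The transcripts A930031H19Rik (-1.45) and Plac9a (-1.19) also fell. In each gene of this paragraph the groups did not overlap, which the rule for naming them required.

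Among marker lists of inner retinal neurons, all 20 retinal ganglion cell genes had a log2FC below 0 (median -0.36), and 8 were called lower. Nefm, a neurofilament of ganglion cell axons, went from 9879 ± 447.4 to 6703 ± 552.6 normalized reads (n = 6 each, SD), a log2FC of -0.56 (SE 0.07, adjusted p = 0.000158). The nicotinic receptor gene Chrna6 fell by 0.75 (SE 0.10), the tubulin gene Tubb3 by 0.54 (SE 0.09) and Pou4f3, a ganglion cell transcription factor, by 1.19 (SE 0.20). Rbpms, a pan-ganglion cell marker, was at 1432 ± 134.6 in OIR and 1482 ± 169.0 in nOIR mice and was not called (log2FC -0.05, adjusted p = 0.848). Without OIR S1 its log2FC was 0.0028. Markers of the same cells thus differed in size of change.

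Among 20 amacrine cell genes, 7 were lower and none higher (median -0.31). These included the calcium-binding protein gene Calb2 (-0.54, SE 0.09), the glycine transporter gene Slc6a9 (-0.54, SE 0.10), the neuropeptide gene Vip (-0.71, SE 0.13) and the GABA-synthesizing enzyme gene Gad1 (-0.37, SE 0.09). OFF bipolar cell genes had a median of -0.35, and 2 of 12 were lower, namely the neurokinin receptor gene Tacr3 (-0.83, SE 0.11) and the kainate receptor gene Grik1 (-0.42, SE 0.07). Of 18 ON bipolar genes, only the calcium sensor gene Scgn was lower (-0.60, SE 0.10), a share of 5.56% beside 3.67% over all genes tested and a count of 2 without OIR S1 or S6 or nOIR S1 or S6. The 12 horizontal cell genes were split, with 7 below 0, a median of -0.04, 1 called higher and 2 lower. Snap25, a component of the vesicle fusion machinery in all retinal neurons, fell by 0.32 (SE 0.08, adjusted p = 0.0228). Its call was lost without OIR S4 or nOIR S5, S6 or S7 (adjusted p up to 0.0619). It was 1 of 3 lower genes among 24 of the synaptic vesicle list, a count of 0 without nOIR S5 or S7 and of 1 without OIR S3, S4 or S5 or nOIR S2, S3 or S6.

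**Figure D3:**
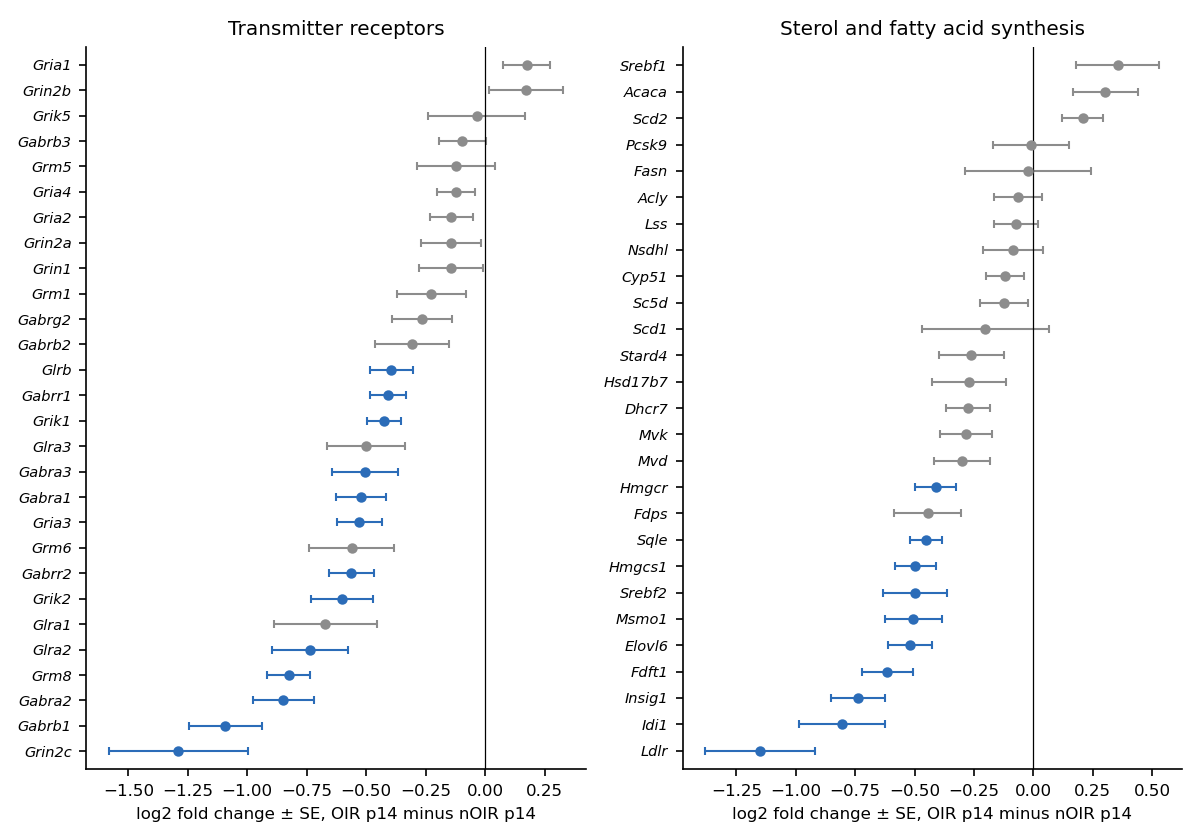
Log2FC at p14 with its SE for the 28 transmitter receptor genes (left) and for sterol and fatty acid synthesis genes (right, 1 of the 28 not drawn). Blue points were called lower, grey points were not called. All called members lie to the left of 0.

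Of 20 rod genes tested, 3 were lower and none higher, and 17 had a log2FC below 0. The rod transducin gene Gnat1 fell by 0.52 (SE 0.10) and the phosphodiesterase gene Pde6a by 0.32 (SE 0.08). The lower count was 7 without nOIR S1 and 5 without OIR S1. Cone genes were mixed, with 1 of 17 lower (5.88%, beside 3.67% over all genes tested) and 3 higher. Cone arrestin (Arr3) fell by 0.89 (SE 0.16), from 3751 ± 559.4 to 2061 ± 585.7 (n = 6 each, SD). The cone opsin gene Opn1sw was not called (log2FC 0.26, adjusted p = 0.419). Gnb3, a transducin subunit shared by cones and ON bipolar cells, rose by 0.51 (SE 0.09). The higher count of the cone list was 1 without OIR S1, S2 or S5 or nOIR S1, S2, S3 or S5. The lower count of the cone list was 2 without OIR S1 or nOIR S1.

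Müller glia genes split. Of 22 genes of resting Müller glia, 7 were lower and 4 higher. Glul, the glutamine synthetase that detoxifies glutamate, ranged from 10388 to 16708 normalized reads in nOIR and from 5616 to 9656 in OIR mice (log2FC -0.98, SE 0.13, adjusted p = 0.000224). Spc25, a kinetochore gene that is enriched in Müller glia of the mouse, fell from a median of 5111 to one of 1858 (log2FC -1.46, SE 0.16). The lipid carrier gene Apoe fell by 0.62 (SE 0.08), the lipid transporter gene Abca8a by 0.95 (SE 0.14), the water channel gene Aqp4 by 0.78 (SE 0.14) and the retinaldehyde-binding protein gene Rlbp1 by 0.52 (SE 0.10). The glutamate transporter gene Slc1a3 had a log2FC of 0.06 and was not called (adjusted p = 0.783). In contrast, the intermediate filament gene Vim rose from 3301 ± 255.8 to 7345 ± 1175 (n = 6 each, SD), a log2FC of 1.14 (SE 0.10, adjusted p = 6.34e-06). Cp, which oxidizes iron, and Crym, which binds thyroid hormone, both rose by 1.24 (SE 0.17 and 0.18).

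Of 27 reactive gliosis genes tested, 20 were higher and none lower, with a median of 1.81. Cebpd, a transcription factor of the acute phase response, went from a median of 165.0 to one of 1573 normalized reads (log2FC 3.13, SE 0.20, adjusted p = 2.68e-07). Bcl3, a regulator of NF-kappaB, rose by 3.77 (SE 0.30). Both had groups without overlap. The count was 20 or 21 without each mouse in turn. Of 18 genes of the NRF2 and heme list, 3 were higher and 1 lower (2 lower without OIR S1 or nOIR S1). The metallothionein gene Mt2 rose by 3.11 (SE 0.29) and heme oxygenase, Hmox1, by 2.65 (SE 0.26).

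Of 28 genes of cholesterol and fatty acid synthesis, 11 were lower and none higher (median -0.28), and the lower count was between 10 and 12 without each mouse in turn. Sqle, the squalene epoxidase, had 2818, 3059 and 3147 normalized reads in nOIR mice (lowest, median, highest) and 2166, 2176 and 2279 in OIR mice, a log2FC of -0.45 (SE 0.07, adjusted p = 0.000446). Insig1, a sensor of sterols, fell by 0.74 (SE 0.11) and the squalene synthase gene Fdft1 by 0.62 (SE 0.11). Hmgcs1, the cytosolic HMG-CoA synthase, fell by 0.50 (SE 0.09). In these 4 genes the groups did not overlap. Lss, which closes the sterol ring, was not called (log2FC -0.07, adjusted p = 0.724).

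Hypoxia-induced genes rose mostly by moderate amounts. Of 51 HIF targets and glycolysis genes tested, 25 were higher and 1 lower, with a median log2FC of 0.41. Without each mouse in turn, between 20 and 27 were higher. Pfkp, a phosphofructokinase that sets the pace of glycolysis, had 11771, 14653 and 18092 normalized reads in nOIR mice (lowest, median, highest) and 26380, 29799 and 32258 in OIR mice. Its log2FC was 1.00 (SE 0.10, adjusted p = 1.14e-05). The abundant glycolytic genes Tpi1 and Gpi1 rose by 0.46 (SE 0.11) and 0.44 (SE 0.07), whereas Ldha (0.21, adjusted p = 0.323) and Pgk1 (0.32, adjusted p = 0.125) were not called. Egln3, the oxygen-sensing prolyl hydroxylase that HIF itself induces, rose by 2.64 (SE 0.28). Vegfa, the main angiogenic factor, ranged from 3558 to 4042 in nOIR and from 4151 to 8754 in OIR mice, a log2FC of 0.66 (SE 0.15, adjusted p = 0.012). Angptl4, the exception, fell by 0.68 (adjusted p = 0.0277). Its call was lost without OIR S3 or S5 or nOIR S3, S5, S6 or S7 (adjusted p up to 0.074).

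HIF binds a short core motif, ACGTG or GCGTG, in hypoxia response elements. In RefSeq promoters (build GRCm38.p6), the 250 bases before the start of 19 of the 25 higher genes of this list could be searched on both strands, together 22 promoters. The letters ACGTG were present in 54.5% of them, GCGTG in 63.6% and either in 81.8%. Among all 32851 promoters of the table the shares were 16.6%, 28.2% and 38.6%. Of the 40 promoters of list members that were not called, 37.5%, 47.5% and 72.5% held them, so the letters were common in the list whether or not a gene was called. A match of letters is not a binding site. Shown 5′ to 3′ on the gene's strand are the 4 higher members that rank first by adjusted p and hold ACGTG, which is in capitals (as CACGT where it lies on the other strand). These genes were chosen by this rule after their values were seen. Positions are in bases before the start.
Egln3, chr12:54203875-54204124, minus strand, ACGTG at 229: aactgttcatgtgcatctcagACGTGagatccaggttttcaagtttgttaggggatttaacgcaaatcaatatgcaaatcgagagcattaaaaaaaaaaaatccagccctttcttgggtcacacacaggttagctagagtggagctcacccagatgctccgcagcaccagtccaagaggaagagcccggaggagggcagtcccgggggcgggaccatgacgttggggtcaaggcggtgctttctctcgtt
Anxa2, chr9:69453433-69453682, plus strand, CACGT at 137: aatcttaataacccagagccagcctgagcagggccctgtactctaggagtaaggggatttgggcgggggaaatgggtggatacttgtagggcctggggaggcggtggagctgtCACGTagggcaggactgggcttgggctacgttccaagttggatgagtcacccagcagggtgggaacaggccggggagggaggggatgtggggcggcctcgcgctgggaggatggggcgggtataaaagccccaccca
Slc16a3, chr11:120948817-120949066, plus strand, ACGTG at 27 and 14: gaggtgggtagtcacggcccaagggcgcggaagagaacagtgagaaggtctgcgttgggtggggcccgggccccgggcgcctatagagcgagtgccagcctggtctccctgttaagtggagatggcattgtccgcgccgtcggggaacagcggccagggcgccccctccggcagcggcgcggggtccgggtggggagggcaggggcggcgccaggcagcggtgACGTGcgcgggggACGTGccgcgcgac
Bnip3, chr7:138909507-138909756, minus strand, ACGTG on both strands at 108 and 107: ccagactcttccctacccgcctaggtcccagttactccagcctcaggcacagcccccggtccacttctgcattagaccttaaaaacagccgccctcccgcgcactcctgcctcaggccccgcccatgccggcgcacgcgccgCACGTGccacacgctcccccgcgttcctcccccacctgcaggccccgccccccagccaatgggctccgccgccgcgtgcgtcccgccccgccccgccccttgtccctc
Anxa2, an annexin that binds membranes and plasminogen, rose by 1.62 (SE 0.19), from 648.9 ± 101.9 to 2068 ± 672.7 normalized reads (n = 6 each, SD). Slc16a3, the lactate exporter of glycolytic cells, rose by 0.86 (SE 0.12), and Bnip3, a mitophagy receptor, by 1.06 (SE 0.14). In all 4 genes the groups did not overlap.

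Sterol regulatory element-binding proteins act through sterol response elements, for which the letters TCACNCCAC (N, any base) were searched on both strands of the same 250 bases. They occurred in 1.05% of all promoters. Among 28 sterol list genes, 6 of the 11 lower genes had a promoter in the table, and Hmgcs1 was the only one with a match, shown here in capitals as the example of a falling gene. Of the 16 promoters of list members that were not called, 0 held a match, so the list had 1 match in 22 promoters. Whether these elements had a part in the falls was not tested.
Hmgcs1, chr13:119690101-119690350, plus strand, TCACNCCAC at 137: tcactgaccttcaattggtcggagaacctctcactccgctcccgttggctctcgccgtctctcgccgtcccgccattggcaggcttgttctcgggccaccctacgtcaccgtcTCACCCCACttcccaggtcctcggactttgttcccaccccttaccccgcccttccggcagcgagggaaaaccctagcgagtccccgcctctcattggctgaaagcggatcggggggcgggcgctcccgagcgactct

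Other moderate rises came from abundant or well-separated genes. Plekhb1 rose by 0.59 (SE 0.09), from 45798 to 63929 normalized reads in nOIR mice to 68569 to 80407 in OIR mice. The adhesion molecule gene Cadm1 rose by 0.44 (SE 0.10). Among genes with a log2FC of at most 2 and no overlap, those with the smallest adjusted p also held the major histocompatibility gene H2-K1 (1.60, SE 0.15), the endoplasmic reticulum retrieval receptor gene Kdelr3 (1.82, SE 0.17), Smtnl2 (1.74, SE 0.19) and Nxph4 (1.07, SE 0.12).

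Microglia are the resident immune cells of the retina. Of 16 genes of their resting state, 1 was lower and 1 higher, with a median of 0.00, and without each mouse in turn no more than 2 were called in a direction. The purinergic receptor gene P2ry12 (log2FC -0.79, adjusted p = 0.121) and Tmem119 (-0.18, adjusted p = 0.799) were not called, and Selplg fell by 0.89 (SE 0.21). Of 22 genes of activated microglia, 11 were higher and 1, Apoe, was lower. Lgals3, a galectin of activated phagocytes, ranged from 32.6 to 55.6 in nOIR and from 129.3 to 577.1 in OIR mice, highest in S1 (log2FC 2.49, SE 0.31). The lysosomal gene Cd68 rose by 1.29 (SE 0.24), Cd52 by 1.75 (SE 0.31) and the macrophage elastase gene Mmp12 by 4.40 (SE 0.69). The higher count was 7 without OIR S4 or S5 or nOIR S7, and 9 without OIR S1. Of 16 genes of T and NK cells, 2 passed the filter on the mean and none was called. The summed level of the list was 81.6 to 114.9 normalized reads in OIR and 57.7 to 85.5 in nOIR mice. Most of it came from Cd8a, with a mean of 59.0 over the 12 mice, whereas the defining T cell genes Cd3e and Cd3d averaged 0.222 and 0.54 and Cd3g was at 0 in each mouse.

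Chemokine and cytokine genes were higher in 11 of 22 and lower in 2. The chemokine genes Ccl2 and Ccl12 rose by 5.56 (SE 0.47) and 3.43 (SE 0.32). Tnf was at 0 in every nOIR mouse and at 17.1 to 59.5 normalized reads in OIR mice, at least 11.9-fold higher against a floor of 3 reads per library. Il33, an alarmin made by Müller glia and other cells, fell by 0.89 (SE 0.20). Complement genes were higher in 8 of 18 and lower in none, with C3 rising by 2.21 (SE 0.24). Of 17 major histocompatibility genes, 6 were higher, and H2-Ab1, a class II chain, rose from 54.1 ± 8.51 to 422.6 ± 95.9 normalized reads (n = 6 each, SD). The immediate early genes were higher in 8 of 24, with Egr2 at 0 to 6.22 in nOIR and 98.8 to 309.8 in OIR mice and Junb rising by 1.15 (SE 0.18).

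Cell cycle genes were higher in 19 of 30 and lower in none, with a median of 1.05. Top2a, the topoisomerase of dividing cells, had 4.19 to 25.6 normalized reads in nOIR and 82.7 to 190.1 in OIR mice (log2FC 3.52, SE 0.34). The mitotic kinase gene Cdk1 rose by 2.12 (SE 0.28), Ube2c by 2.74 (SE 0.33) and Birc5 by 1.96 (SE 0.23). Without each mouse in turn, 17 to 20 were higher. Of 22 genes of cell death, 6 were higher, among them the cell cycle inhibitor Cdkn1a (1.41, SE 0.18), the death receptor gene Tnfrsf1a (1.17, SE 0.18), the necroptosis effector gene Mlkl (1.93, SE 0.36) and Casp8 (0.94, SE 0.20). Among 32 basement membrane and collagen genes, 8 were higher (15 with DESeq2 and 12 without OIR S1), including Loxl2 (1.95, SE 0.23) and Fn1 (1.12, SE 0.18).

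**Figure D4:**
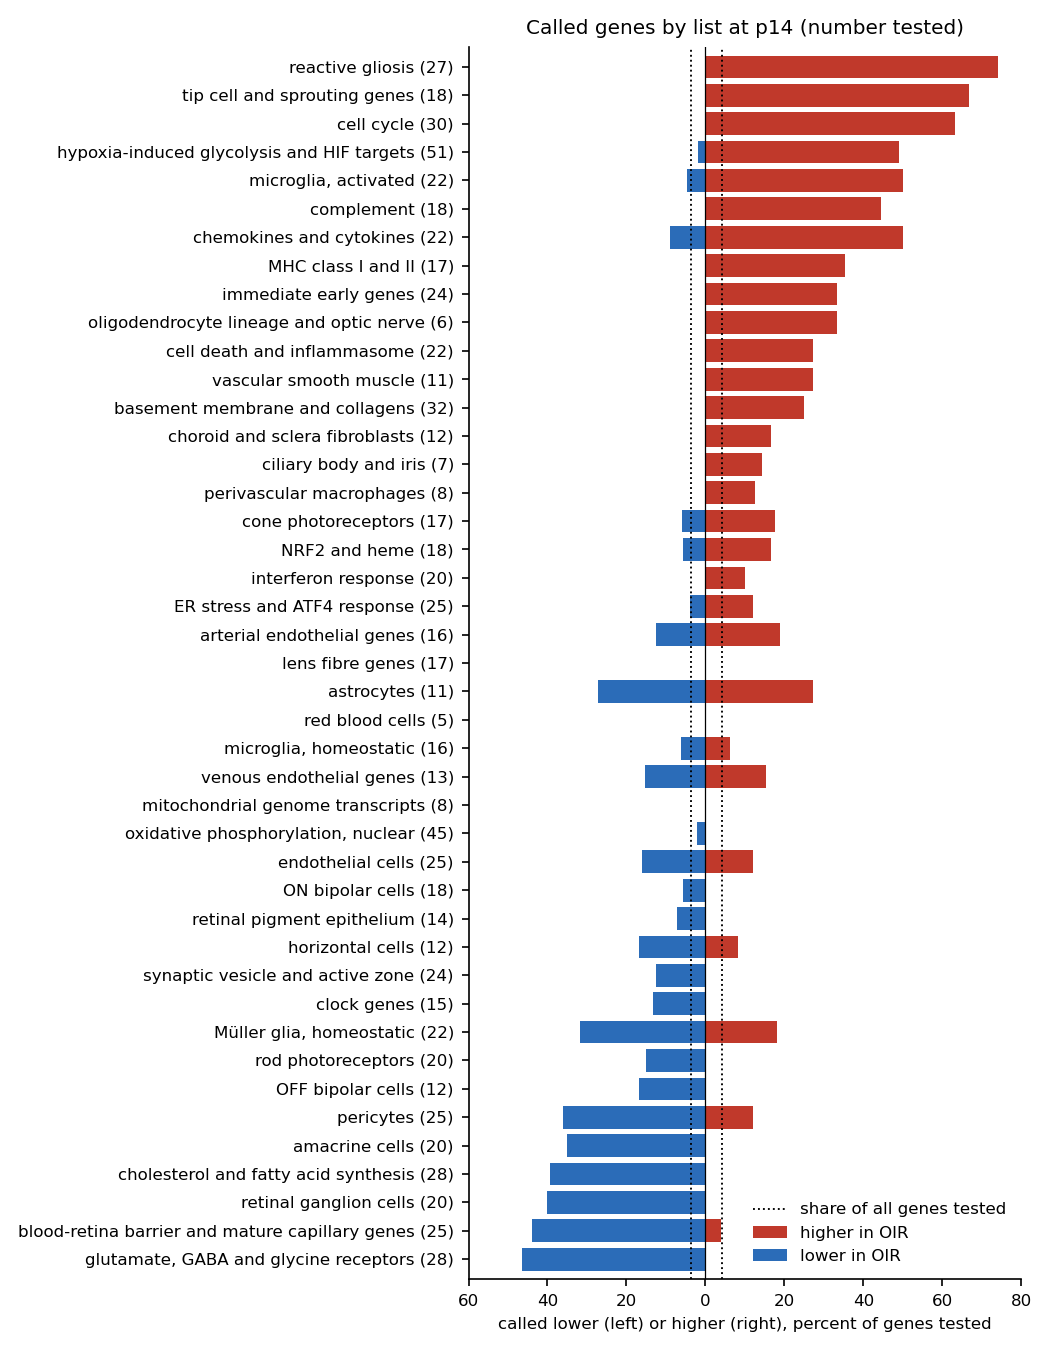
Share of the tested genes of each list drawn that was called higher (red, right) or lower (blue, left) at p14, with the number tested in parentheses. The monocyte and neutrophil, T and NK cell and sex-linked lists are not drawn. Dotted lines mark the shares over all genes tested, 4.10% higher and 3.67% lower. Reactive gliosis, tip cell and cell cycle genes lie furthest to the right, and transmitter receptor, barrier and ganglion cell genes furthest to the left.

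Whether the effect at p14 differed from that at p17 was tested as a contrast between both effects in the 4 groups of 26 mice (6 OIR p14, 6 nOIR p14, 8 OIR p17 and 6 nOIR p17). The p17 pups were of the same strain, with the same oxygen exposure in OIR and room air throughout in nOIR. By the study's methods, each p17 group came from few litters. The litter of each mouse is not known here, so the p-values of this contrast also take mice as independent. Over all genes tested, 2.48% (470) differed at an adjusted p under 0.05, and in 424 of these the effect was lower at p14 than at p17. OIR p17 S1 had 17029536 reads, fewer than any other mouse, and without it 555 genes differed. Of the genes called at p14, 61 of the 696 lower and 77 of the 777 higher ones differed. The lower count was 39 without OIR p14 S5 and 40 without nOIR p14 S7. A gene called lower at p14 was chosen for a low effect there, so the direction of its difference is partly fixed by that choice. The effect was lower at p14 in 57 of the 61 lower genes, and in 42 of them the sign at p17 was opposite (19 of these were called at p17). It was lower at p14 also in 64 of the 77 higher genes and in 303 of the 332 genes that differed without a call at p14.

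Several pericyte genes that were lower at p14 were higher at p17. In 12 of the 25 tested, the effect differed between p14 and p17, and in all 12 it was lower at p14. The median over the list was -0.47 at p14 and 1.15 at p17. Rgs5, below all nOIR mice at p14, had 1587 to 2033 normalized reads in nOIR p17 and 5096 to 8296 in OIR p17 mice, a log2FC of 1.84 (difference -2.94, SE 0.21, adjusted p = 1.55e-09). Ednra went from -0.92 at p14 to 2.23 at p17, Higd1b from -1.21 to 2.27, Abcc9 from -1.47 to 1.36 and Kcnj8 from -1.72 to 0.99 (adjusted p of the differences from 5.84e-09 to 1.72e-07). Pdgfrb, not called at p14, differed too (-0.32 and 1.32). Atp13a5 did not turn, with -2.88 at p14 and -2.72 at p17 (difference -0.15, SE 0.70, adjusted p = 0.958). Marker lists of other cells moved in the same direction between the stages. Red blood cell genes had a median of 0.0047 at p14 and 3.09 at p17, and 3 of 5 differed (0 to 5 without each of the 26 mice in turn). Their summed level was 1232 to 16998 normalized reads in OIR p17 and 194.7 to 1194 in nOIR p17 mice. Perivascular macrophage genes had medians of 0.20 and 2.17 (3 of 8 differed) and choroid and sclera fibroblast genes of 0.10 and 1.24 (2 of 12, or 1 to 4 without each mouse). The part of these cells in the stage differences was not tested.

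Among 25 endothelial genes, 16 differed between the stages, all with the lower effect at p14, and the median was -0.25 at p14 and 1.27 at p17. Cldn5 went from -0.83 to 0.89 and Cdh5 from -0.25 to 1.43. In the barrier list 5 of 25 differed, all with the lower effect at p14. The effect was lower at p14 in 21 of the 25, and the median was -0.46 at p14 and -0.09 at p17. Slco1a4 was at -1.86 and -1.79 (difference -0.07, SE 0.33, adjusted p = 0.964), Slco1c1 at -1.62 and -1.28 (difference -0.34, SE 0.34, adjusted p = 0.744) and Pltp at -1.31 and -0.95 (difference -0.36, SE 0.21, adjusted p = 0.5).

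**Figure D5:**
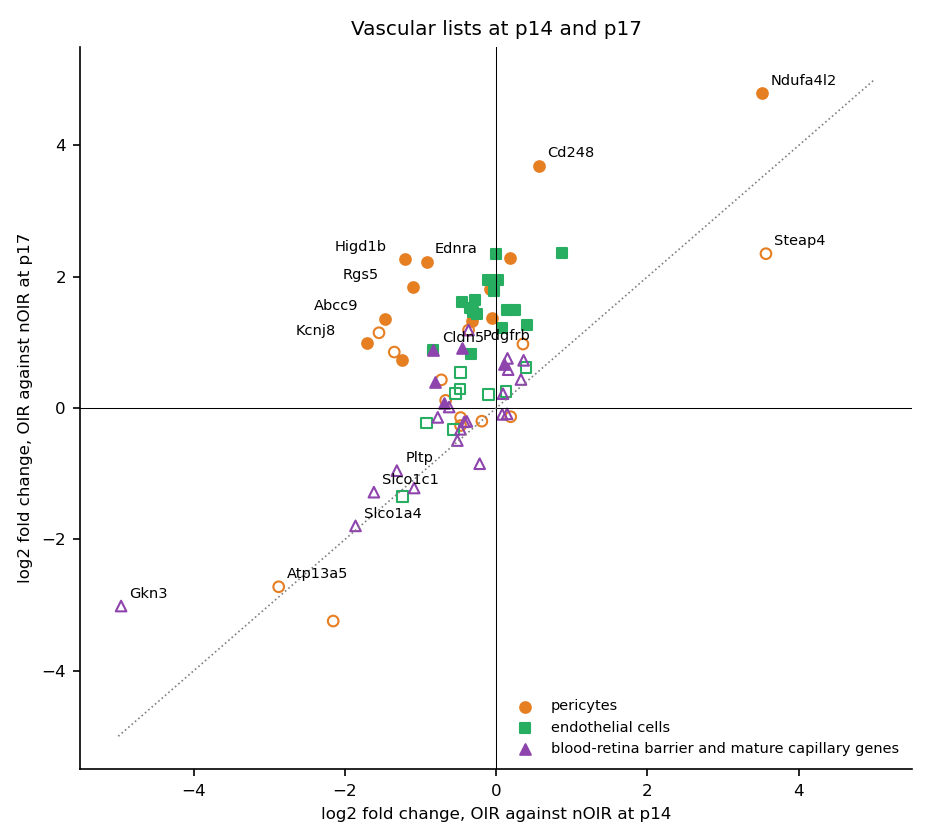
Log2FC at p14 (x axis) and p17 (y axis) of the pericyte, endothelial and barrier genes tested (25 each, Cldn5 in both of the last). Filled symbols differed between the stages at an adjusted p under 0.05, open symbols did not, and the dotted line marks equal effects. Rgs5, Abcc9, Kcnj8, Higd1b, Ednra and Cldn5 lie left of 0 at p14 and above 0 at p17, whereas Slco1a4, Slco1c1, Pltp and Atp13a5 lie below 0 at both. Gkn3, at 0 in each OIR p14 mouse, is drawn at its value on the log2(normalized reads + 1) scale.

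Among genes called higher at p14, the differences with the smallest adjusted p were those of Cd248 (0.56 at p14 and 3.69 at p17), Apln (1.57 and 4.43), Angpt2 (0.88 and 2.88) and Mcam (1.30 at p14, difference -1.40). Top2a rose by 3.52 at p14 and by 6.56 at p17 and Vegfa by 0.66 and 1.49. An example of the opposite order, named after its values were seen, was Cirbp, an RNA-binding protein gene induced by cold and other stress. It rose by 0.82 at p14, from a median of 10091 to one of 17894 normalized reads, and had a log2FC of -0.27 at p17 (difference 1.10, SE 0.21, adjusted p = 0.00229).

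Of the 28 receptor genes, the 20 ganglion cell genes and the 28 sterol genes, none differed at an adjusted p under 0.05, beside 2.48% of all genes, a share at which few calls fall in lists of this size. Their medians at p17 were -0.51, -0.39 and -0.30. Gabra4 had a log2FC of -1.65 at p14 and -1.68 at p17 (difference 0.02, SE 0.19, adjusted p = 0.982), and Cck of -2.19 and -2.05 (difference -0.14, SE 0.34, adjusted p = 0.912). Among the 12 lower genes with the smallest adjusted p, Plac9a differed, with -1.19 at p14 and 0.13 at p17 (difference -1.32, SE 0.27, adjusted p = 0.00418). Arr3 went from -0.89 to -0.04 (adjusted p of the difference = 0.0303) and Apoe from -0.62 to 0.11 (adjusted p of the difference = 0.0417). Without each of the 26 mice in turn, the difference was lost in 10 cases for Arr3 (adjusted p up to 0.0625) and in 16 for Apoe (up to 0.0853).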

How the data were processed

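The 12 p14 mice of the comparison were taken from a table of 27 mice. The authors made SMARTer libraries of whole-retina RNA, checked reads with FastQC 0.73, aligned them with STAR 2.7.8a and counted them with featureCounts 2.0.1. The deposited values are a signal, read counts per gene divided by DESeq2 size factors (normalized reads). Whole reads were recovered from them for 100% of values (tolerance 0.001), and the library totals come from these. The columns with the authors' own comparisons (log2 fold changes and p-values) were deposited too and were not used. Values were analysed as log2(deposited normalized reads + 1).

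Genes whose mean over the 12 mice reached 10 normalized reads were fitted with limma 3.58.1 (trend) in R 4.3.3. P-values were adjusted after Benjamini and Hochberg over all 18955 genes, and no deposited p-value was taken. nOIR p14 S4 was left out as in the study. Litters of single mice are not known here. Tested on simulated data, the fit recovered 70.5% of 200 genes changed by 1 on the log2 scale, with 12 false calls, and made 0 calls where nothing was changed.

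The comparison, the gene lists and the rule for named genes were chosen with earlier results of these data known. The rule takes the 12 lower genes and the 8 higher ones with a log2FC of at most 2 that have the smallest adjusted p and no overlap, the 6 most abundant called genes in each direction, up to 4 members a list and direction with its defining members, genes beside a threshold, and the 4 with the smallest adjusted p of the stage difference in each direction. Not every such gene is printed, and some were left out after their call was seen to be lost without single mice. Anxa2, Slc16a3, Bnip3 and Cirbp lie outside it. Promoters were those of RefSeq for GRCm38.p6. Other settings were edgeR 4.0.16 and DESeq2 1.42.0 on the recovered reads, other scalings, filters, pseudocounts and covariates, and each mouse left out in turn. Results that need certain genes, among them 1 planned covariate setting, are not reported here. That setting lowered the counts of called genes more than any setting reported, so the counts of unchanged values cover the reported settings only.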

Additional observations from a re-analysis of the deposited data

Results flagged for a closer look

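Of 254 groups of 6 mice tested (127 named genes in 2 groups), 22 held a mouse whose gap to its nearest neighbour was large against the range of the group, by Dixon's criterion at the 95% level. Chance gives about 1 in 20. Values are normalized reads. In OIR p14 S1, this was Chrna6 at 3967. In OIR p14 S2, these were Steap4 at 10.7 and Tnfrsf1a at 284.5. In OIR p14 S3, these were Esm1 at 18.2, H2-Q6 at 8.07, Igfbp3 at 613.1, Mlkl at 28.2 and Slc1a3 at 9652. In OIR p14 S4, this was Snap25 at 42674. In OIR p14 S5, this was Cck at 112.0. In OIR p14 S6, this was Dio2 at 495.8. In nOIR p14 S1, these were Fdft1 at 1745 and Snap25 at 46892. In nOIR p14 S2, these were Pecam1 at 621.7 and Tnfrsf1a at 158.2. In nOIR p14 S3, these were Apln at 482.6, Cp at 2865, Crym at 6391, Gnb3 at 19781 and Plekhb1 at 63929. In nOIR p14 S5, this was Smtnl2 at 56.9. In nOIR p14 S7, this was Dio2 at 668.7. OIR p14 S3 and nOIR p14 S3 accounted for 5 each. Flagged genes with groups that did not overlap included Cck, Esm1, Dio2, Plekhb1, Igfbp3, Apln, Fdft1 and Smtnl2. The naming rule required this of Cck, Dio2 and Smtnl2.

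The effect at p14 differed from that at p17 in 32 of the 127 named genes (contrast of both effects in limma, adjusted p under 0.05). The effect at p14 minus that at p17, on the log2 scale, was negative in 31 of them, namely Abcc9 (-2.83), Acta2 (-1.68), Adm (-2.49), Angpt2 (-2.01), Angptl4 (-1.46), Anxa2 (-0.92), Apln (-2.85), Apoe (-0.72), Arr3 (-0.85), Birc5 (-1.56), Cd248 (-3.13), Cd68 (-1.31), Cdh5 (-1.68), Cdk1 (-2.11), Cldn5 (-1.72), Ecscr (-1.49), Ednra (-3.15), Esm1 (-2.91), Higd1b (-3.48), Junb (-1.28), Kcnj8 (-2.70), Mcam (-1.40), Ndufa4l2 (-1.28), Pdgfrb (-1.64), Pecam1 (-0.87), Plac9a (-1.32), Rgs5 (-2.94), Tnfrsf1a (-1.10), Top2a (-3.04), Ube2c (-2.35), Vegfa (-0.83). It was positive in Cirbp (1.10). The difference was lost without at least 1 of the 26 mice in 6 of these genes (Anxa2, Apoe, Arr3, Birc5, Cd68 and Esm1).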

How the results depend on the processing

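At an adjusted p under 0.01, 397 genes were called higher and 277 lower (777 and 696 in the report), and 22 higher and 19 lower ones differed between the stages. With a mean of at least 1 as the filter, 35 DEGs were lower (22 in the report). DESeq2 gave 139 higher genes whose effect differed between p14 and p17 (77 with limma). Among the lists, DESeq2 gave 15 higher basement membrane genes (8 with limma), 13 immediate early genes (8), 7 interferon response genes (2) and 5 lower genes each in the rod and synaptic vesicle lists (3 each). With all 4 groups in the fit, 12 basement membrane genes were higher. Quantile normalization left 1 rod gene lower, and log2 Cryaa as a covariate 7 higher genes of activated microglia (11). Leaving out each p14 mouse moved the count of lower genes that differed between the stages to between 39 and 60. Leaving out each p17 mouse, a setting chosen after seeing the data, gave 47 to 70 lower and 61 to 95 higher ones, the most higher ones without OIR p17 S1. The replicate block gave 265 higher and 137 lower genes, with 3 lower receptor, 2 sterol, 2 ganglion cell and 0 amacrine genes. Same-numbered mice did not deviate together (correlations from -0.20 to 0.13 over 5 numbers), so the numbers were not taken as pairing. Of the 777 higher genes 519, and of the 696 lower genes 429, kept their call without each mouse in turn. Some genes given by the naming rule were left unnamed after their call was seen to be lost without single mice, so counts over the named genes overstate how often calls held. Rbpms, which was not called, turned in sign without OIR p14 S1 (0.0028, with the others down to -0.0946). Of 3175 values of named genes under the settings reported, 3064 stayed on their side of the threshold with their direction, 107 lost a call and 3 gained one. The cause was not tested. Library totals at p14 had a median of 26105775 reads in OIR and 29704549 in nOIR mice, and OIR p17 S1 was the shallowest library of the stage comparison. Genes under a mean of 10 normalized reads were not tested.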

Other observations

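Several lists had few or no calls. Of 45 nuclear genes of oxidative phosphorylation, 1 was lower and none higher (median log2FC -0.13), and of 8 mitochondrial transcripts none was called (median -0.37). Without nOIR p14 S1 the lower counts were 8 and 4, and without any other single mouse 0 or 1 and 0. Of 15 clock genes 2 were lower, and of 25 genes of the endoplasmic reticulum stress response 3 were higher and 1 lower. The lower count was 0 without OIR p14 S1, S5 or S6 or nOIR p14 S2, S3, S5, S6 or S7. Of 20 interferon response genes 2 were higher (median 0.58), a count of 6 without OIR p14 S2 and of 5 without nOIR p14 S7. Astrocyte genes were split, with 3 of 11 higher and 3 lower, and so were horizontal cell genes, with 1 of 12 higher and 2 lower. Without any one of OIR p14 S4, S5 or S6 or nOIR p14 S2, S3, S5, S6 or S7, 1 horizontal cell gene was lower.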
